A study of Mus musculus with 36 samples.

Results

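Chga, Chgb, Sst, Gip, Cck, Ghrl, Gcg, Tac1, Tph1 and Neurod1 are genes of the hormone-producing enteroendocrine cells of the gut. All 10 were found by symbol among the 34197 gene rows of the deposited count table, and they were followed over its 36 libraries one by one. The libraries came from mouse duodenal organoids (C57BL/6 males or virgin females over 8 weeks of age), 20 to 50 organoids a sample, held in a microfluidic chip and measured by Sort-seq, a poly(A) method that tags each captured molecule. The treated groups received pulses of DAPT, an inhibitor of gamma-secretase, at a period of 90 min (1.38 µM), 130 min (2 µM) or 170 min (2.6 µM, with 2 µM also named in the labels). The control groups received DMSO, the solvent of the inhibitor, and whether it was pulsed is not stated. Each of these 4 treatments was given for 24, 48 or 72 h, with 3 replicates in each of the 12 groups. Organoids were passaged 3, 2 or 1 days before the 24, 48 and 72 h experiments, so that all were harvested 4 days after passage and a longer treatment began sooner after passage. The labels do not say whether replicates were separate cultures or came from separate animals, so the tests measure only how these samples scatter, which may be technical.

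Enteroendocrine cells are rare secretory cells scattered through the gut epithelium. They arise from crypt progenitors in which Notch signalling is low, pass through a stage marked by the transcription factor Neurog3, and store peptide hormones or serotonin in dense-core granules. Gamma-secretase cuts the Notch receptor to release its active fragment, and inhibitors of the enzyme are known to favour secretory cell types in intestinal epithelium. In a bulk sample, fewer enteroendocrine cells and less hormone RNA per cell cannot be told apart.

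The bases before the start of transcription are shown for 4 of the genes whose levels ran most closely together or which carry a binding motif that few promoters have. All 10 genes matched the RefSeq promoter table (mouse build GRCm38.p6), with 14 starts in all, and the 250 bases before each start were searched on both strands for the E-box CANNTG, the motif of basic helix-loop-helix factors such as Neurod1, and for the cAMP response element TGACGTCA. Each motif reads the same on both strands, and an E-box could share its outer 2 bases with the response element. Capitals mark the matches. These coordinates belong to the RefSeq table alone, the build behind the counts being unknown.
Chga, chr12:102554691-102554940, plus strand: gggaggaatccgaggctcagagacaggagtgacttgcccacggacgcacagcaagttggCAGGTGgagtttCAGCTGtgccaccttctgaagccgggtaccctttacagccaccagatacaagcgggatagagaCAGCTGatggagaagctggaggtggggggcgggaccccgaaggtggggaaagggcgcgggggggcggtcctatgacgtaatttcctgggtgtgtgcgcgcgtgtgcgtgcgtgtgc
Chgb, chr2:132781392-132781641, plus strand: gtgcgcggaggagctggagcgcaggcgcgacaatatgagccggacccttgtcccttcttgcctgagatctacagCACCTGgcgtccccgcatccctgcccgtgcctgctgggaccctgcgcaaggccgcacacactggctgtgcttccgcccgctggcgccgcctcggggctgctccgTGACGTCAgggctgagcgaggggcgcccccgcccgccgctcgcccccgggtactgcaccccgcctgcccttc
Tac1, chr6:7554811-7555060, plus strand: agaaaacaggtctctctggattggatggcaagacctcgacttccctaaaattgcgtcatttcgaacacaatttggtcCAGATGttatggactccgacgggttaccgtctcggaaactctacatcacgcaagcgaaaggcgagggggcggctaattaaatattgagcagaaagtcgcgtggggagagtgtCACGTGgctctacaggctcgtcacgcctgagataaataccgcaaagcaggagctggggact
Sst, chr16:23890845-23891094, minus strand: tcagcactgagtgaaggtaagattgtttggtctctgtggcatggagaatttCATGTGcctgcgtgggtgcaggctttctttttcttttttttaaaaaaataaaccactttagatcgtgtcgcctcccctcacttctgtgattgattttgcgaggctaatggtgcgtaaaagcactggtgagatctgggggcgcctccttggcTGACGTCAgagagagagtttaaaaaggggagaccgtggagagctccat

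An E-box was found in 10 of the 14 windows of these genes, before at least 1 start of 9 of the 10 genes, and in 66.2% of all 32851 promoter windows of the same length. Tph1 was the gene without one in these windows. The cAMP response element was found in 2 of the 14 windows, before Chgb and Sst, and in 1.55% of all windows. These matches describe letters and were not tested as binding sites.

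Total counts ran from 482741 to 1447330 molecules per library with a median of 958749, and values are given as CPM, counts scaled to a common library total of 1e+06 molecules. In these totals a count of 0 allows a level of up to 2.07 to 6.21 CPM (3 counts, counting error only). Libraries of a group differed in sex-linked transcripts. The labels name males or virgin females and do not give the sex behind each library. The summed level of the Y-linked genes Ddx3y, Eif2s3y, Kdm5d and Uty ran in a graded way from 1.52 to 535 CPM over the 36 libraries. Xist, which is made from the inactive X chromosome of female cells, reached 85.3 CPM in replicate 3 of 130 min at 24 h and 96.7 CPM in replicate 3 of 170 min at 24 h, and no more than 1.62 CPM in the other 34. These genes were looked at after their values had been seen. Ranges of fold changes with the Y-linked level in the model and the Xist libraries left out are given beside the averaged comparisons.

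Hormone gene RNA differed widely between libraries of one and the same group. The sum of the 10 genes was lowest in replicate 1 of 130 min at 48 h, with 11.5 CPM (11 molecules of 960086), and highest in replicate 2 of the same group, with 1511 CPM. The sum was under 100 CPM in 9 libraries, of which 0 were from 90 min, 4 from 130 min, 4 from 170 min and 1 from DMSO. Among the 18 libraries of 130 and 170 min the sums fell apart, with 8 up to 92.6 CPM and 10 from 411 CPM upwards. In the 18 libraries of 90 min and DMSO they ran from 64.8 to 1172 CPM.

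**Figure D1:**
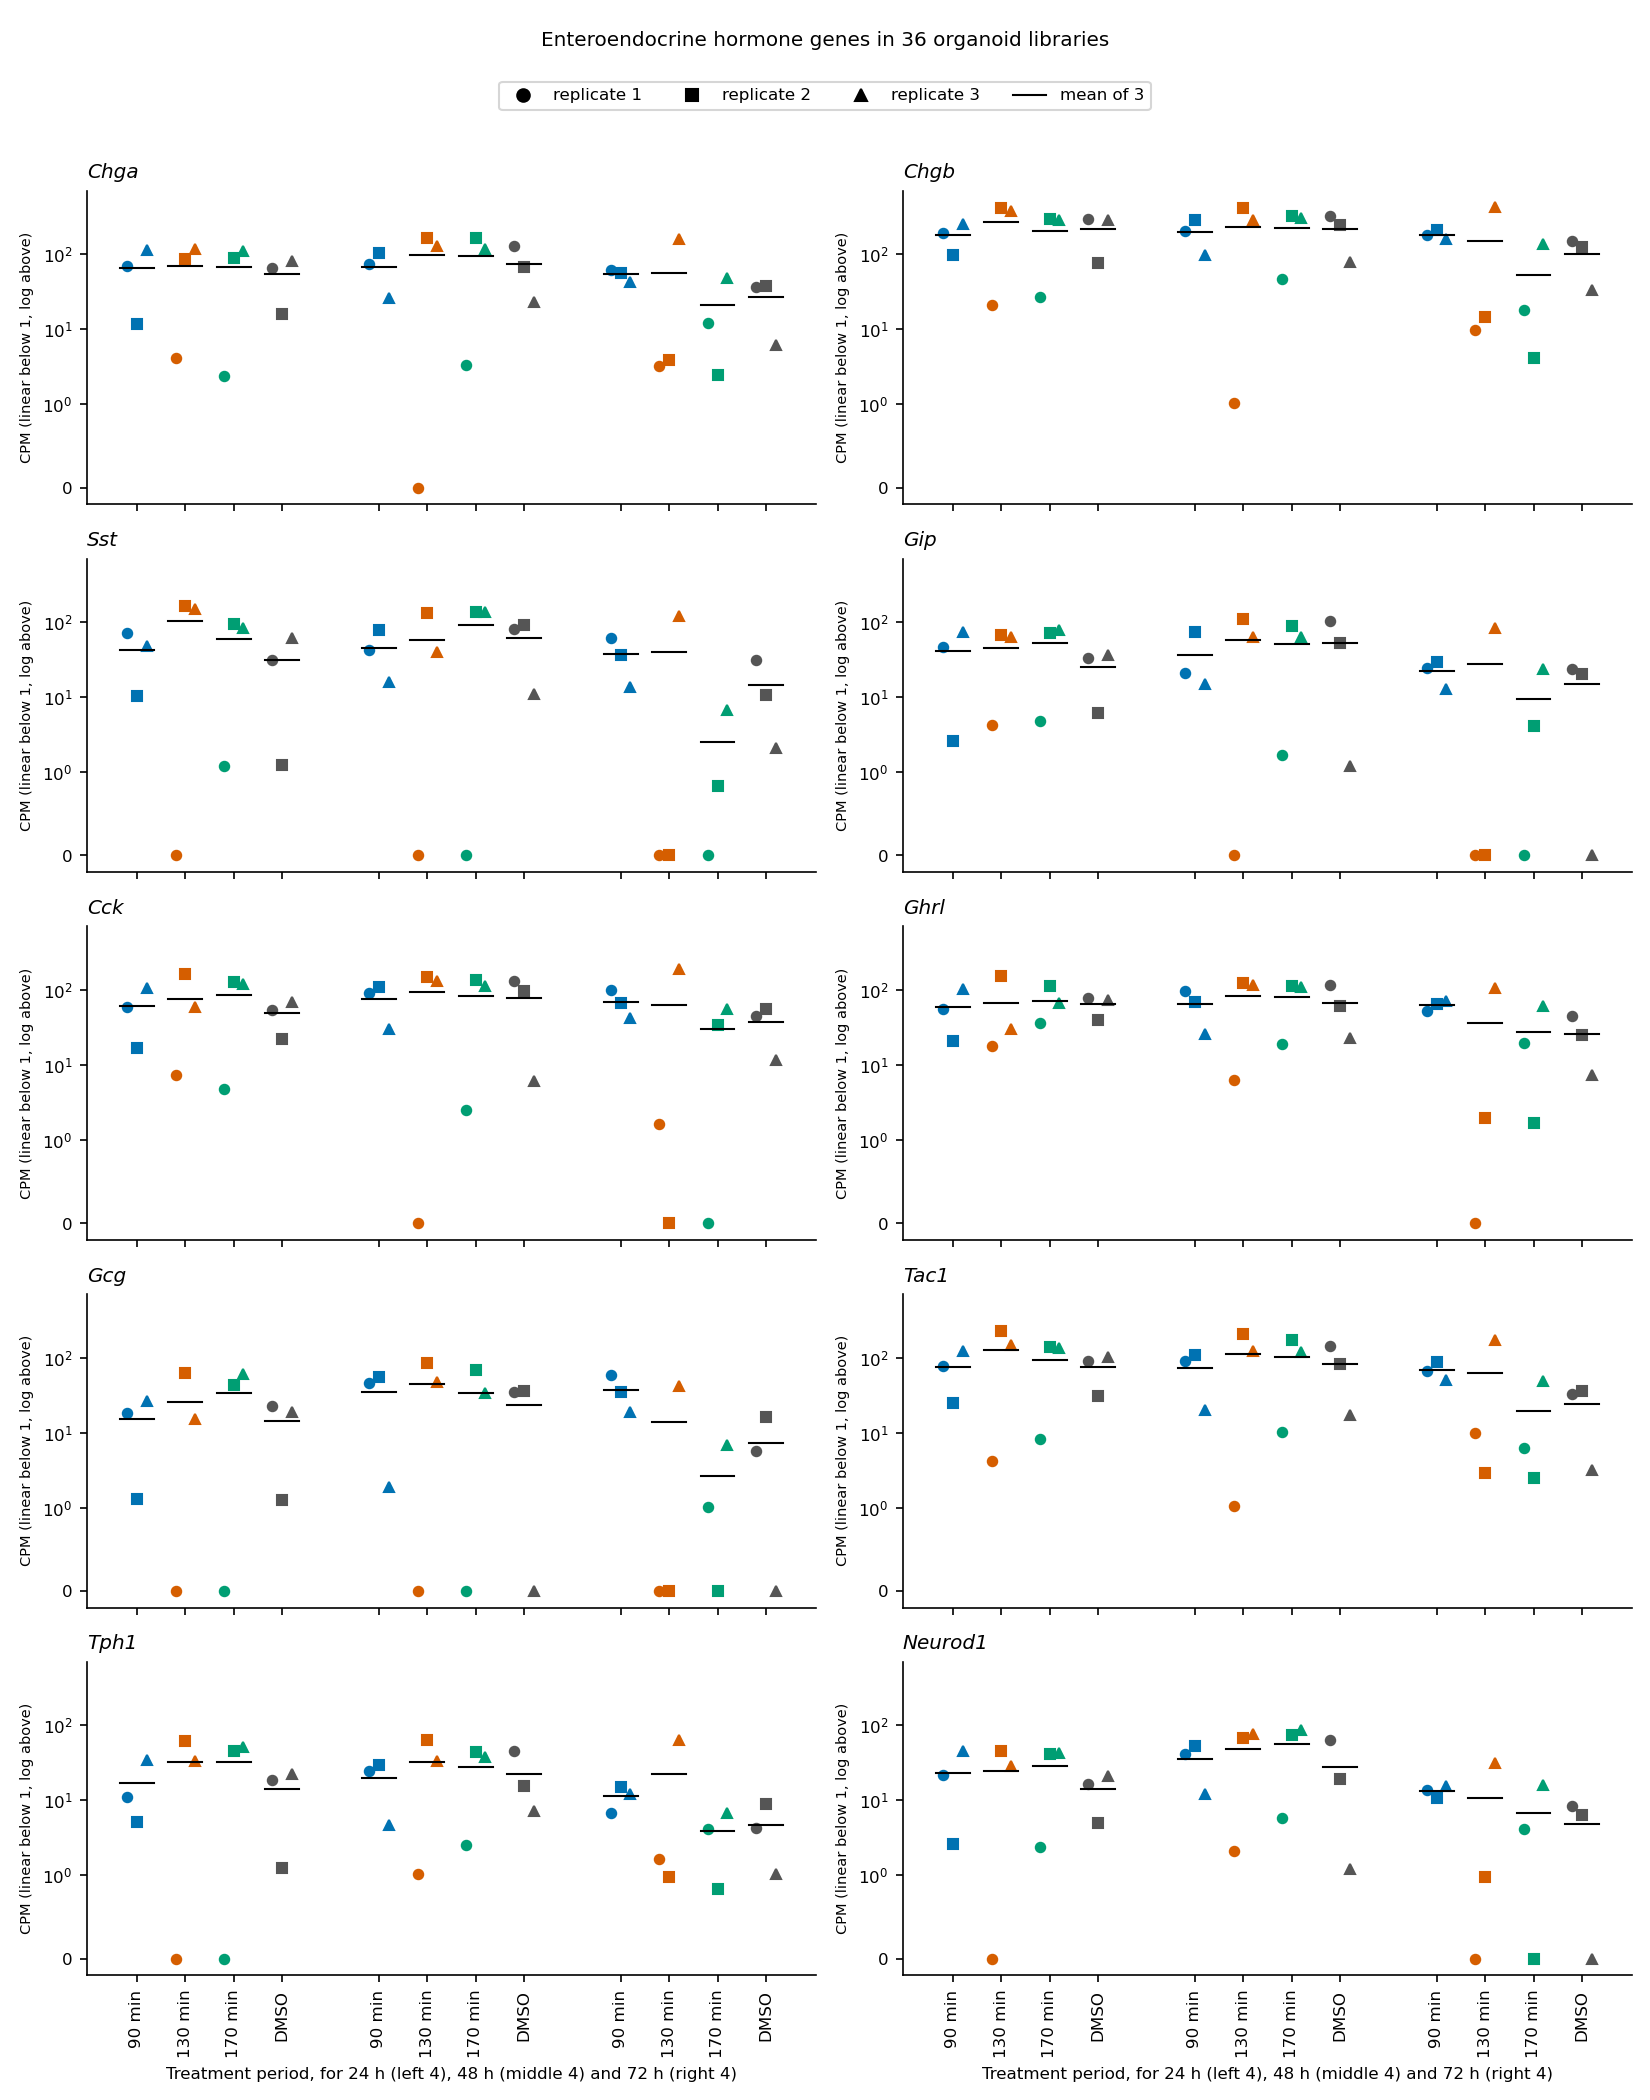
Level of each of the 10 hormone genes (CPM, linear below 1 and logarithmic above) in every library, by treatment within 24, 48 and 72 h, with symbols for the replicate number and a bar for the mean of 3. Replicate 1 of 130 min at 48 h is the lowest or shares the lowest value in most panels, while replicate 2 of the same group is among the highest.

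Chga ranged over 0 to 168 CPM (median 60.1) and Chgb over 1.04 to 434 CPM (median 187), with 2233 and 6508 molecules in all. Their products chromogranin A and chromogranin B are acidic proteins that help to pack hormones in the dense-core granules of most enteroendocrine cells. At 24 h, Chga had 71.0, 11.7 and 115 CPM in 90 min libraries, 4.20, 87.9 and 117 CPM in 130 min libraries and 2.38, 90.5 and 113 CPM in 170 min libraries, against 66.3, 16.2 and 81.8 CPM in DMSO libraries. At 48 h, Chga had 75.4, 104 and 26.5 CPM in 90 min libraries, 0, 168 and 129.5 CPM in 130 min libraries and 3.34, 164 and 119.7 CPM in 170 min libraries, against 129.9, 67.4 and 22.9 CPM in DMSO libraries. At 72 h, Chga had 62.8, 57.3 and 43.0 CPM in 90 min libraries, 3.27, 3.91 and 160.0 CPM in 130 min libraries and 12.3, 2.50 and 47.8 CPM in 170 min libraries, against 36.5, 37.6 and 6.27 CPM in DMSO libraries. Within 130 and 170 min, replicate 1 was low at each duration and replicate 2 was low as well at 72 h, while replicate 3 was high at 24 and 48 h. The values of each DAPT group overlapped those of DMSO at 24 and 48 h, and at 72 h those of 90 min lay above all 3 DMSO values.

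At 24 h, Chgb had 196, 98.8 and 255 CPM in 90 min libraries, 21.0, 414 and 383 CPM in 130 min libraries and 27.3, 297 and 283 CPM in 170 min libraries, against 298, 77.2 and 285 CPM in DMSO libraries. At 48 h, Chgb had 208, 286 and 97.4 CPM in 90 min libraries, 1.04, 409.7 and 285 CPM in 130 min libraries and 47.6, 327 and 309.5 CPM in 170 min libraries, against 322, 246 and 78.5 CPM in DMSO libraries. At 72 h, Chgb had 179, 211 and 162 CPM in 90 min libraries, 9.82, 14.7 and 434 CPM in 130 min libraries and 18.4, 4.16 and 138 CPM in 170 min libraries, against 149, 124 and 33.4 CPM in DMSO libraries. The same libraries were low and high as for Chga. Averaged over durations, Chgb had 188 ± 63.1 CPM in 90 min libraries, 219 ± 201 CPM in 130 min libraries, 161 ± 141 CPM in 170 min libraries and 179 ± 109 CPM in DMSO libraries (SD, n = 9 each), with SDs in 130 and 170 min libraries nearly as large as the means.

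Sst, which encodes the somatostatin of D cells, a peptide that restrains the release of other gut hormones, ranged over 0 to 165 CPM (median 33.8). It was at 0 in 6 libraries, which all came from 130 or 170 min groups. At 24 h, Sst had 71.0, 10.4 and 47.4 CPM in 90 min libraries, 0, 165 and 148 CPM in 130 min libraries and 1.19, 95.3 and 82.9 CPM in 170 min libraries, against 31.1, 1.25 and 60.7 CPM in DMSO libraries. At 48 h, Sst had 42.2, 79.0 and 16.1 CPM in 90 min libraries, 0, 134 and 40.0 CPM in 130 min libraries and 0, 135 and 138 CPM in 170 min libraries, against 81.3, 90.3 and 10.9 CPM in DMSO libraries. At 72 h, Sst had 61.5, 36.6 and 13.8 CPM in 90 min libraries, 0, 0 and 119 CPM in 130 min libraries and 0, 0.833 and 6.83 CPM in 170 min libraries, against 30.8, 10.7 and 2.09 CPM in DMSO libraries. All 3 values of 170 min at 72 h were under 7 CPM, and in 130 min at 72 h a single library carried all Sst molecules. At 72 h the values of each DAPT group overlapped those of DMSO.

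Gip, which encodes the incretin of K cells, ranged over 0 to 108 CPM (median 24.3) and was at 0 in 5 libraries. At 24 h, Gip had 46.4, 2.60 and 73.7 CPM in 90 min libraries, 4.20, 68.2 and 64.0 CPM in 130 min libraries and 4.75, 72.0 and 79.5 CPM in 170 min libraries, against 33.1, 6.23 and 35.9 CPM in DMSO libraries. At 48 h, Gip had 20.7, 74.4 and 15.1 CPM in 90 min libraries, 0, 108 and 63.6 CPM in 130 min libraries and 1.67, 90.0 and 62.5 CPM in 170 min libraries, against 103, 53.0 and 1.21 CPM in DMSO libraries. At 72 h, Gip had 24.6, 29.7 and 13.0 CPM in 90 min libraries, 0, 0 and 83.9 CPM in 130 min libraries and 0, 4.16 and 23.9 CPM in 170 min libraries, against 23.8, 20.6 and 0 CPM in DMSO libraries. In 130 min at 72 h replicate 3 alone held Gip molecules, and each DAPT group overlapped DMSO at every duration.

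Cck, which encodes the peptide of I cells that contracts the gallbladder, ranged over 0 to 188 CPM (median 57.3) with 3 libraries at 0. At 24 h, Cck had 59.1, 16.9 and 104 CPM in 90 min libraries, 7.35, 163 and 59.4 CPM in 130 min libraries and 4.75, 128 and 121 CPM in 170 min libraries, against 53.9, 22.4 and 69.4 CPM in DMSO libraries. At 48 h, Cck had 89.4, 107 and 30.3 CPM in 90 min libraries, 0, 147 and 132 CPM in 130 min libraries and 2.50, 135 and 111 CPM in 170 min libraries, against 132, 96.3 and 6.03 CPM in DMSO libraries. At 72 h, Cck had 99.7, 67.2 and 42.2 CPM in 90 min libraries, 1.64, 0 and 188 CPM in 130 min libraries and 0, 34.1 and 54.7 CPM in 170 min libraries, against 44.9, 55.5 and 11.5 CPM in DMSO libraries. Replicate 2 of 170 min at 72 h, which had little or no Chga, Sst and Gcg, kept Cck within the range of the DMSO libraries of that duration, and each DAPT group overlapped DMSO at every duration.

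Ghrl, which encodes the appetite hormone ghrelin, ranged over 0 to 154 CPM (median 58.5) with 1 library at 0. At 24 h, Ghrl had 55.5, 20.8 and 103 CPM in 90 min libraries, 17.9, 154 and 30.5 CPM in 130 min libraries and 35.7, 111 and 66.3 CPM in 170 min libraries, against 78.7, 39.9 and 73.1 CPM in DMSO libraries. At 48 h, Ghrl had 97.7, 68.9 and 25.5 CPM in 90 min libraries, 6.25, 122 and 117 CPM in 130 min libraries and 19.2, 112 and 110.0 CPM in 170 min libraries, against 116, 61.4 and 22.9 CPM in DMSO libraries. At 72 h, Ghrl had 51.9, 64.3 and 71.4 CPM in 90 min libraries, 0, 1.95 and 106 CPM in 130 min libraries and 19.4, 1.67 and 61.5 CPM in 170 min libraries, against 44.9, 25.1 and 7.31 CPM in DMSO libraries. Ghrl thus kept a measurable level in several libraries in which Sst and Gcg were at or near 0, such as replicate 1 of 170 min at 24 and 48 h.

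Gcg encodes proglucagon, from which L cells make GLP-1. It ranged over 0 to 84.4 CPM (median 18.4) and was at 0 in 9 libraries, the most of the 10 genes. At 24 h, Gcg had 18.2, 1.30 and 26.3 CPM in 90 min libraries, 0, 62.2 and 15.2 CPM in 130 min libraries and 0, 42.4 and 60.1 CPM in 170 min libraries, against 22.8, 1.25 and 18.6 CPM in DMSO libraries. At 48 h, Gcg had 45.5, 55.1 and 1.89 CPM in 90 min libraries, 0, 84.4 and 47.1 CPM in 130 min libraries and 0, 67.7 and 33.4 CPM in 170 min libraries, against 34.4, 36.1 and 0 CPM in DMSO libraries. At 72 h, Gcg had 58.7, 34.6 and 18.7 CPM in 90 min libraries, 0, 0 and 42.0 CPM in 130 min libraries and 1.02, 0 and 6.83 CPM in 170 min libraries, against 5.61, 16.1 and 0 CPM in DMSO libraries. Its 72 h values in 90 min libraries lay above all 3 DMSO values, and those of 130 and 170 min overlapped DMSO.

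Tac1, the precursor of substance P, and Tph1, the rate-limiting enzyme of serotonin synthesis outside the nervous system, both belong to enterochromaffin cells. Tac1 ranged over 1.04 to 224 CPM (median 71.0) and was detected in every library, and Tph1 ranged over 0 to 64.3 CPM (median 11.5) with 2 libraries at 0. At 24 h, Tac1 had 76.4, 24.7 and 124 CPM in 90 min libraries, 4.20, 224 and 145 CPM in 130 min libraries and 8.32, 137 and 133 CPM in 170 min libraries, against 91.1, 31.1 and 102 CPM in DMSO libraries. At 48 h, Tac1 had 88.6, 107 and 19.9 CPM in 90 min libraries, 1.04, 208 and 124 CPM in 130 min libraries and 10.0, 172 and 119.7 CPM in 170 min libraries, against 144, 81.9 and 16.9 CPM in DMSO libraries. At 72 h, Tac1 had 65.6, 87.0 and 49.5 CPM in 90 min libraries, 9.82, 2.93 and 172 CPM in 130 min libraries and 6.13, 2.50 and 49.0 CPM in 170 min libraries, against 32.3, 35.8 and 3.13 CPM in DMSO libraries. Replicate 2 of 130 min at 24 h had the highest level of the series. At 24 h, Tph1 had 10.9, 5.20 and 34.6 CPM in 90 min libraries, 0, 62.2 and 33.5 CPM in 130 min libraries and 0, 45.6 and 51.1 CPM in 170 min libraries, against 18.6, 1.25 and 22.3 CPM in DMSO libraries. At 48 h, Tph1 had 24.8, 29.4 and 4.73 CPM in 90 min libraries, 1.04, 62.8 and 33.0 CPM in 130 min libraries and 2.50, 43.7 and 37.7 CPM in 170 min libraries, against 45.3, 15.7 and 7.24 CPM in DMSO libraries. At 72 h, Tph1 had 6.83, 14.8 and 12.2 CPM in 90 min libraries, 1.64, 0.977 and 64.3 CPM in 130 min libraries and 4.09, 0.833 and 6.83 CPM in 170 min libraries, against 4.21, 8.95 and 1.04 CPM in DMSO libraries. In 130 min at 72 h, replicate 3 was again the only high library.

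Neurod1, a transcription factor that acts after Neurog3 in the enteroendocrine lineage, ranged over 0 to 87.4 CPM (median 15.7) and was at 0 in 4 libraries. At 24 h, Neurod1 had 21.8, 2.60 and 45.1 CPM in 90 min libraries, 0, 45.4 and 29.0 CPM in 130 min libraries and 2.38, 40.8 and 42.8 CPM in 170 min libraries, against 16.6, 4.98 and 21.1 CPM in DMSO libraries. At 48 h, Neurod1 had 41.4, 53.3 and 12.3 CPM in 90 min libraries, 2.08, 67.3 and 76.5 CPM in 130 min libraries and 5.84, 74.9 and 87.4 CPM in 170 min libraries, against 63.7, 19.3 and 1.21 CPM in DMSO libraries. At 72 h, Neurod1 had 13.7, 10.9 and 15.4 CPM in 90 min libraries, 0, 0.977 and 31.5 CPM in 130 min libraries and 4.09, 0 and 15.9 CPM in 170 min libraries, against 8.41, 6.26 and 0 CPM in DMSO libraries. Over treatments, Neurod1 averaged 22.7 ± 17.8 CPM at 24 h, 42.1 ± 32.4 CPM at 48 h and 8.93 ± 9.34 CPM at 72 h (SD, n = 12 each). The 72 h libraries of all treatments stayed at or below 31.5 CPM.

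The 10 genes rose and fell together between replicates. Deviations of log2(CPM + 1) from the mean of each group of 3 were correlated for all 45 pairs of genes over the 36 libraries. All 45 coefficients were positive and past the threshold (permutation test within groups, 100000 resamples, two-sided, Benjamini-Hochberg adjustment over 45 pairs, largest adjusted p = 0.0024). Pearson's r ran from 0.76 (Cck with Ghrl) to 0.97 (Chga with Tac1) with a median of 0.91, and Spearman's rho from 0.76 to 0.97. Without the 2 libraries farthest from the median, r ran from 0.79 to 0.96. Since the libraries of 130 and 170 min fell into a low and a high set, the 18 libraries of 90 min and DMSO were also taken alone, and there all 45 pairs again passed, with a median r of 0.90. With the replicate number as a block within the pair of treatments, 30 of 45 pairs passed and 44 were positive, with r from -0.08 to 0.84 and a median of 0.58. The permutation moves libraries freely within a group and so takes same-numbered libraries of different treatments as independent. In the 18 libraries of 130 and 170 min the median r was 0.94, over values that hold the gap between low and high libraries. The 10 genes share each library and its total, and the deviation of log2 total counts had little relation to that of Chga (r = 0.02, adjusted p = 0.923 by permutation over 17 relations; Spearman's rho = 0.01, adjusted p = 0.976).

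**Figure D2:**
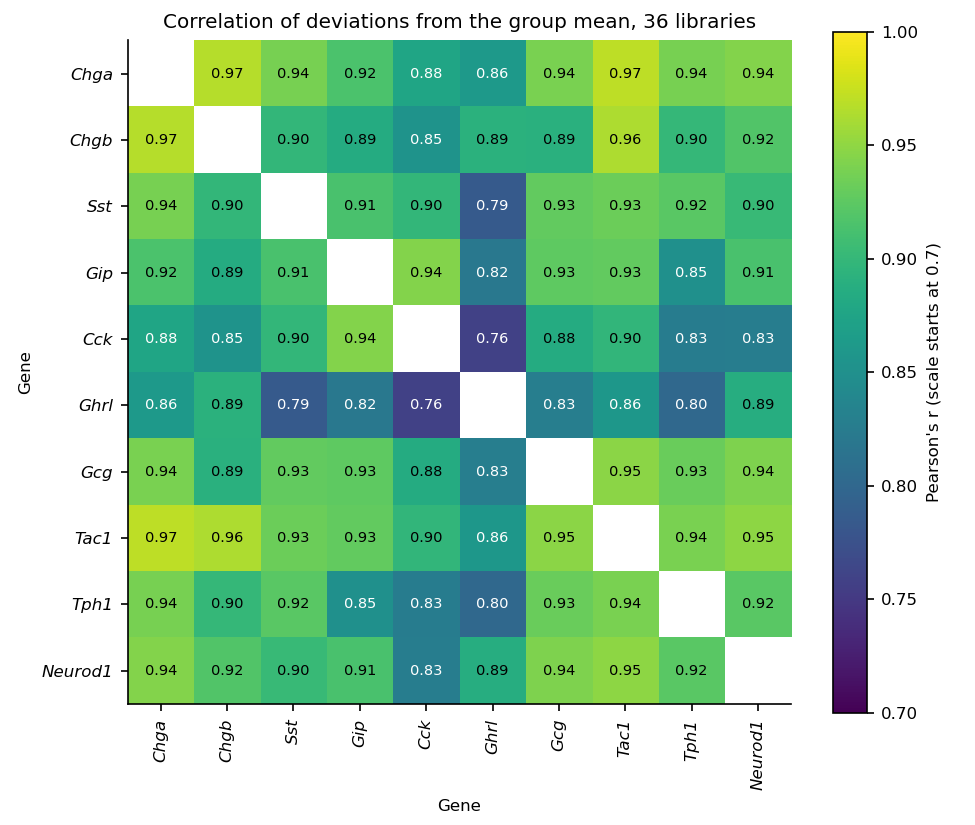
Pearson's r between deviations from the group mean of log2(CPM + 1) for each pair of the 10 genes over 36 libraries (colour scale from 0.7 to 1). All 45 values are positive, and the row of Ghrl holds the lowest ones, down to 0.76 with Cck.

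The measured ratios of the genes to Chgb varied between libraries. In the 24 libraries with at least 100 Chgb molecules, Chga per Chgb molecule ran from 0.212 to 0.501 (coefficient of variation 22.5% between libraries) and Tac1 per Chgb molecule from 0.204 to 0.542 (22.6%). The ratio of Cck varied by 25.3%, that of Ghrl by 28.8% and that of Gip by 33.6%. Sst per Chgb molecule spread much further, from 0.0496 in replicate 3 of 170 min at 72 h to 0.446 in replicate 3 of 170 min at 48 h (45.4%). Gcg spread the most, from 0.0194 in replicate 3 of 90 min at 48 h to 0.328 in replicate 1 of 90 min at 72 h (54.5%), with Tph1 at 44.0% and Neurod1 at 52.6%. The lowest ratio of Sst rests on 6 molecules beside 121 of Chgb, and that of Gcg on 2 beside 103. Relative counting error is larger for scarcer genes, and its part in these spreads was not tested.

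**Figure D3:**
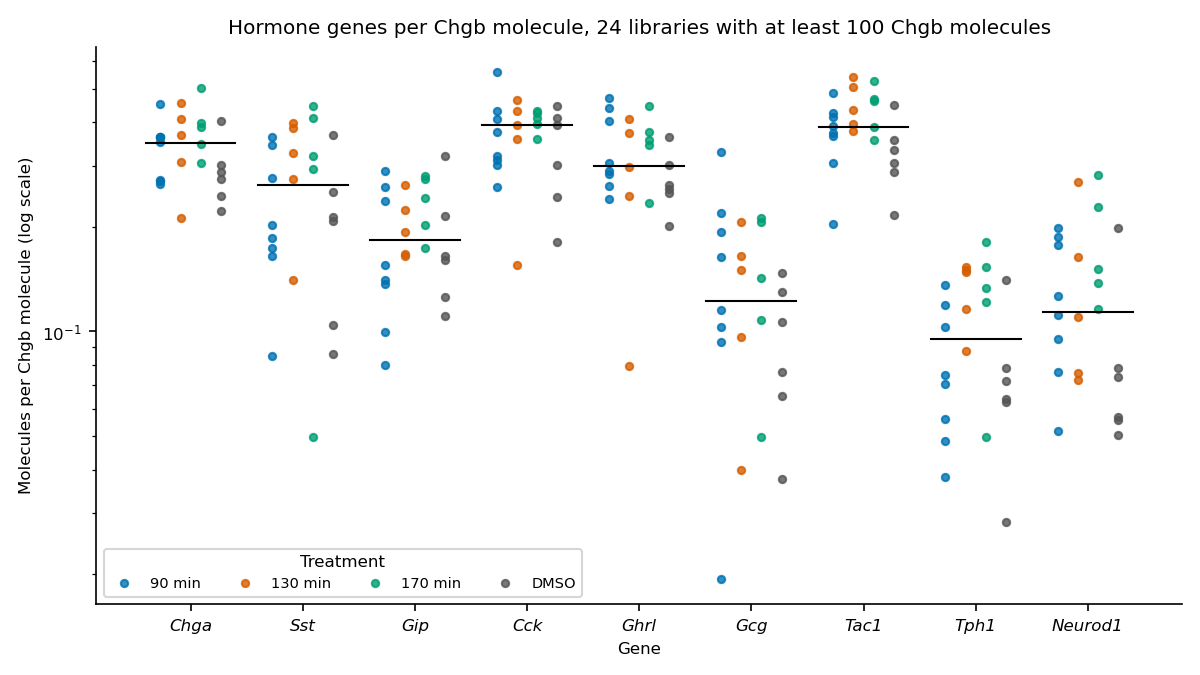
Molecules of each gene per Chgb molecule (logarithmic axis) in the 24 libraries with at least 100 Chgb molecules, by treatment, with a bar for the median. Chga and Tac1 stay within 2.36 and 2.66 times between the lowest and highest library, and Gcg spreads over 16.9 times.

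The deviation of every hormone gene also followed the Y-linked level. Over the 34 libraries without Xist, r with log2(CPM + 1) of the Y-linked sum ran from 0.86 (Cck) to 0.96 (Chga), with Spearman's rho from 0.86 to 0.97 (permutation within groups, adjusted over 10 genes, largest adjusted p = 0.00012), and r without the 2 farthest libraries from 0.83 to 0.95. Replicate 1 of 130 min at 48 h, the library poorest in hormone RNA, had 2.08 CPM of Y-linked transcripts, and replicate 2 of 130 min at 48 h had 353 CPM. The pair with Xist departed from this, with hormone gene sums of 1024 and 1032 CPM beside 1.52 and 4.15 CPM of Y-linked transcripts. With the Y-linked level regressed out and those libraries left out, 5 of 45 hormone gene pairs passed the threshold and the median r was 0.37. What the hormone genes and the Y-linked genes share was not tested.

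**Figure D4:**
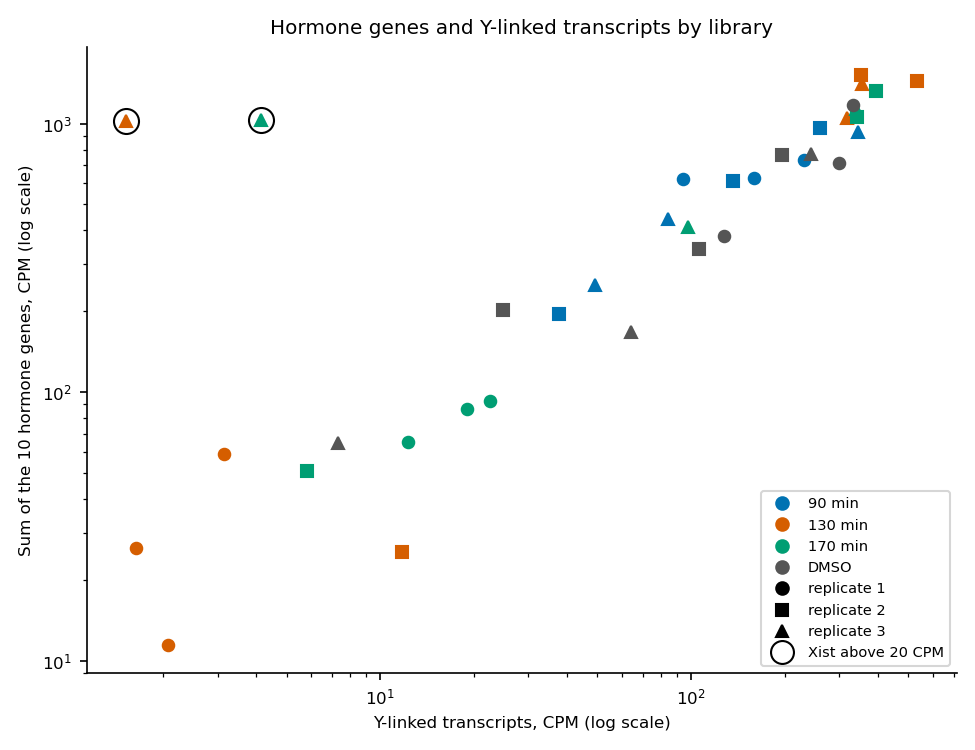
Sum of the 10 hormone genes against the sum of 4 Y-linked transcripts (both in CPM, logarithmic axes) for the 36 libraries, coloured by treatment with symbols for the replicate number and rings around the 2 libraries with Xist. Libraries without Xist lie along one rising band, and the 2 ringed ones lie at 1024 and 1032 CPM of hormone RNA with 1.52 and 4.15 CPM of Y-linked RNA.

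Genes outside the set shared the pattern. Of the 11461 other tested genes, 128 (1.12%) had r above 0.8 with Chga, among them all 9 other hormone genes. The 3 genes most like Chga were Cstf2t (r = 0.97), Tac1 (0.97) and Chgb (0.97) over 36 libraries, a likeness given as a description. Chgb was most like Chga (0.97), Tac1 (0.96) and Tstd1 (0.95), and Tac1 most like Chga (0.97), Cstf2t (0.96) and Chgb (0.96). Sst was closest to Chga (0.94), Tac1 (0.93) and Gng11 (0.93). Gip went with Cck (0.94), Ppp1r26 (0.94) and 2210016F16Rik (0.94), and Cck with Gip (0.94), Sst (0.90) and Tac1 (0.90). Gcg was nearest to 2210016F16Rik (0.96), H2-Q10 (0.96) and Hmgn3 (0.95), and Neurod1 to 2210016F16Rik (0.98), Cstf2t (0.97) and Hmgn3 (0.97). Tph1 was nearest to Gng11 (0.96), Cstf2t (0.96) and AC113595.1 (0.95). Ghrl was nearest to Lyz1, a Paneth cell lysozyme (0.92), Ccnb1ip1 (0.92) and Tstd1 (0.92). The nearest hormone gene came 5th for Gcg, 7th for Ghrl, 8th for Tph1 and 10th for Neurod1. Cstf2t itself was at 0 in replicate 1 of 130 min at 48 h, against 71.9 CPM in replicate 2 of that group.

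Other enteroendocrine genes moved with Chga only in part. Of 17 tested transcription factors of the lineage, 10 had r above 0.5 with Chga, against 843 of all tested genes (7.36%). The highest were Fev (0.91), a factor of serotonin-producing cells, Nkx2-2 (0.88), Insm1 (0.86), Runx1t1 (0.81) and Pax6 (0.80), whereas Prox1 (-0.65) and Hhex (-0.54) had negative values. Neurog3, the gene that starts the lineage, had 167 molecules in all libraries together and was not tested. Among 6 tested other gut hormones, secretin (Sct, 0.73) and urocortin 3 (Ucn3, 0.73) were above 0.5, and neurotensin (Nts) was at -0.51. Of 19 tested genes of granules and secretion 7 were above 0.5, led by the prohormone convertase Pcsk1 (0.92) and the granin Scg2 (0.90). In none of the 3 lists did a member pass the threshold in any of the 19 tests of treatment, duration or their interaction, each of which is given below with its share of all tested genes.

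Markers of other cell types were summed in the same libraries. The summed level of 8 Paneth genes ran from 1079 to 3822 CPM and followed Chga (r = 0.78, adjusted p = 0.00034 by permutation over 17 relations, Spearman's rho = 0.76). Without the 2 farthest libraries r was 0.82. The Paneth genes did not move as one. Of 7 tested, 6 had a positive r with Chga and 3 were above 0.5, led by Lyz1 (0.90), while Mmp7 was at -0.63. For the tuft list (10 genes, 22.6 to 176 CPM) r was 0.55 (adjusted p = 0.0193 by permutation; Spearman's rho = 0.49), and for the stem cell list (6 genes) it was 0.54 (adjusted p = 0.0104 by permutation; Spearman's rho = 0.50). The goblet sum (8 genes, 2259 to 4093 CPM) had r of -0.19 and the enterocyte sum (8 genes, 1150 to 6297 CPM) r of 0.28, with adjusted p = 0.462 and 0.273 by permutation. The enteric neuron and glia list had r of 0.59 (adjusted p = 0.0104 by permutation; Spearman's rho = 0.58; r = 0.51 without the 2 farthest libraries) over summed levels of 4.21 to 24.1 CPM, and 1 of its 6 genes in the table was tested, Ret (0.85). The endothelial sum (0.828 to 11.7 CPM) had r of -0.37 (adjusted p = 0.0377 by permutation; Spearman's rho = -0.37, adjusted p = 0.0617) and held no tested gene. For the gastric and Brunner gland list r was -0.45 and for the pancreatic islet list 0.38, with adjusted p = 0.0809 and 0.0529 by permutation. Other lists were mixed as well. Of 6 tested gastric genes 3 had a positive r with Chga, with Tff2 at -0.89 and Pgc at 0.65. Of 7 tested tuft genes 6 were positive, and Avil was at -0.22. Of 6 tested stem cell genes 5 were positive, and Ascl2 was at -0.33. The part of these cell types in the hormone gene differences was not tested.

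DAPT pulses were compared with DMSO to ask whether a period changes hormone gene RNA. Averaged over the 3 durations, 0 of the 10 genes passed the threshold for any period (edgeR quasi-likelihood test, Benjamini-Hochberg adjustment over 11462 genes, threshold 0.05), and 0 of all tested genes passed, a percentage of 0.0. With neither a replicate block nor the Y-linked level in the model, 0 of the 10 hormone genes had an unadjusted p under 0.05 for any period. Among all tested genes there were 908 (7.92%), 629 (5.49%) and 990 (8.64%) for 90, 130 and 170 min. DESeq2 called 0 hormone genes in each of these comparisons, as in all 19 tests. All 10 fold changes were positive for 90 min and for 130 min, and 8 of 10 for 170 min, with SEs of 0.61 to 1.23 on the log2 scale that exceeded most of them. With the Y-linked level in the model and the Xist libraries left out, the fold changes lay from 0.04 to 0.86 for 90 min, from -0.0004 to 0.82 for 130 min and from -0.31 to 0.89 for 170 min, with 10, 9 and 7 of 10 positive. In that fit 2, 2 and 1 of 10 hormone genes had an unadjusted p under 0.05 (edgeR), beside 1186, 1291 and 931 of all tested genes. The adjusted threshold was passed there by 0, 27 and 0 of all tested genes, and by 0 of 10 hormone genes for each period. The 10 genes vary together, so that neither a common sign nor such counts stand for 10 observations.

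Against DMSO, Gcg in 90 min libraries had a log2 fold change of 0.97 (SE 0.91, adjusted p = 0.812), from means of 28.9 ± 21.2 CPM in 90 min libraries and 15.0 ± 14.2 CPM in DMSO libraries (SD, n = 9 each). For Neurod1 in 90 min libraries it was 0.82 (SE 0.83, adjusted p = 0.83) by edgeR. As libraries were left out, Gcg ran from 0.76 to 1.49 and Neurod1 from 0.41 to 1.5. In 130 min libraries the smallest p-values belonged to Tph1, at 1.28 (SE 0.81, adjusted p = 0.936), and Sst, at 1.07 (SE 0.89, adjusted p = 0.971) by edgeR. Both rested on replicate 3 of 130 min at 72 h: without that library the values were -0.07 for Tph1 and -1.70 for Sst. In 170 min libraries Neurod1 had 0.75 (SE 0.88, adjusted p = 0.821) and Chgb -0.39 (SE 0.69, adjusted p = 0.897) by edgeR, and these turned to -0.30 for Neurod1 without replicate 3 of each group and to 0.41 for Chgb without replicate 1.

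At single durations 0 of 10 hormone genes passed in any of the 9 comparisons with DMSO, and 0.0% of all tested genes did. The smallest p-value among them was that of Tph1 in 130 min at 72 h, at 2.17 (SE 1.60, adjusted p = 0.682) by edgeR, and it was -1.89 without replicate 3 of that group. With neither a replicate block nor the Y-linked level in the model, again 0 of 10 hormone genes had an unadjusted p under 0.05 in each of the 9. The shares of all tested genes were 9.69%, 4.7% and 12.4% for 90, 130 and 170 min at 24 h. They were 1.53%, 2.47% and 3.15% at 48 h, and 0.995%, 10.3% and 2.17% at 72 h. With the Y-linked level in the model and the Xist libraries left out, 0, 1 and 0 of 10 hormone genes had such a p at 24 h (edgeR). There were 0, 1 and 1 of 10 at 48 h, and 4, 2 and 1 of 10 at 72 h. Of all tested genes, 1311, 1075 and 886 did at 24 h in that fit. At 48 h these were 244, 563 and 567, and at 72 h they were 183, 1445 and 357. With replicate pairs as a block, given below, 6 of 10 hormone genes had such a p for 90 min at 72 h. For 90 min at 72 h the values of 6 of the 10 genes lay above all 3 DMSO values, as did those of 4.8% of all tested genes. The interaction of treatment and duration passed for 0 of 10 hormone genes and 0.0% of all tested genes (edgeR), with 272 tested genes (2.37%) at an unadjusted p under 0.05 and 0 of them hormone genes. With the Y-linked level and without the Xist libraries, Gcg had an unadjusted interaction p of 0.034 (edgeR), beside 378 tested genes under 0.05.

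The periods were then set against each other. In 90 min relative to 130 min libraries, Tph1 differed by -0.87 (SE 0.74, adjusted p = 0.658) and Sst by -0.62 (SE 0.80, adjusted p = 0.796) on the log2 scale (edgeR). In 170 min relative to 130 min libraries, Sst differed by -1.43 (SE 1.04, adjusted p = 0.592) and Tph1 by -0.96 (SE 0.79, adjusted p = 0.647), and all 10 fold changes were negative (edgeR). Without replicate 3 of 130 min at 72 h, all 4 of these values changed sign, to 0.48 for Tph1 and 2.15 for Sst in 90 relative to 130 min libraries, and to 1.34 for Sst and 0.40 for Tph1 in 170 relative to 130 min libraries. In 90 min relative to 170 min libraries, Gcg differed by 0.94 (SE 0.98, adjusted p = 1.0) and Chgb by 0.51 (SE 0.67, adjusted p = 1.0) (edgeR). Gcg ran from 0.19 to 1.95 and Chgb from 0.03 to 1.49 in this comparison as libraries were left out. With the Y-linked level in the model and the Xist libraries left out, the 10 fold changes lay from -0.54 to 0.83 in 90 relative to 130 min libraries, from -0.53 to 0.40 in 170 relative to 130 min libraries and from -0.16 to 0.88 in 90 relative to 170 min libraries. Of these, 5 of 10 were positive in 170 relative to 130 min libraries, where Sst was -0.53 (SE 0.58, adjusted p = 0.75) and Neurod1 0.40 (SE 0.29, adjusted p = 0.576) by edgeR. With neither a replicate block nor the Y-linked level in the model, 0 of 10 hormone genes and 0.0% of all tested genes passed in each comparison. There 0 of 10 hormone genes had an unadjusted p under 0.05, beside 11.8%, 12.0% and 1.3% of all tested genes. In the fit with the Y-linked level, 2, 0 and 1 of 10 hormone genes had such a p (edgeR). Of all tested genes 1882, 1244 and 406 did. The adjusted threshold was passed in that fit by 126, 0 and 0 of all tested genes, and by 0 of 10 hormone genes each time.

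Replicate numbers tied the 130 and 170 min libraries together. Libraries were paired by duration and number, and for each hormone gene the deviations of the 170 and the 130 min library were correlated across the 9 pairs. This r ran from 0.74 to 0.99 over the 10 genes, and across the 9 pairs of 90 min and DMSO libraries from 0.51 to 0.94. Over all other tested genes the same-numbered 170 and 130 min libraries correlated at 0.24 to 0.59, each best with its own number. With the number as a block in these 2 treatments, the SEs fell by a median factor of 2.42, and 4 of 10 genes had an unadjusted p under 0.05, beside 15.5% of all tested genes, while 0 passed the adjusted threshold (edgeR, smallest adjusted p = 0.146). Sst was then at -1.35 (SE 0.38, adjusted p = 0.165), Tac1 at -0.76 (SE 0.21, adjusted p = 0.146) and Tph1 at -0.85 (SE 0.30, adjusted p = 0.196), in 170 relative to 130 min libraries (edgeR). Counted by pair, Tac1 was lower in the 170 min library in 7 of 9 pairs, Sst was higher in 4 and lower in 3 of 9, Neurod1 was higher in 6 of 9, and Gip was higher in 5 and lower in 3 of 9. For 90 min relative to DMSO the same block gave Gcg 0.93 (SE 0.34, adjusted p = 0.402) by edgeR. Neurod1 was at 0.84 (SE 0.36, adjusted p = 0.436) by edgeR. Gcg was higher in the 90 min library in 8 of 9 pairs. In that averaged comparison 3 of 10 genes had an unadjusted p under 0.05 (edgeR), beside 1250 of all tested genes. At 72 h alone 6 of 10 did, beside 272 of all tested genes, with Tac1 at 1.58 and Gcg at 2.255. At 24 h and at 48 h 0 of 10 did. In each case 0 of 10 passed the adjusted threshold. The 10 genes vary together, so these counts are not separate observations.

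**Figure D5:**
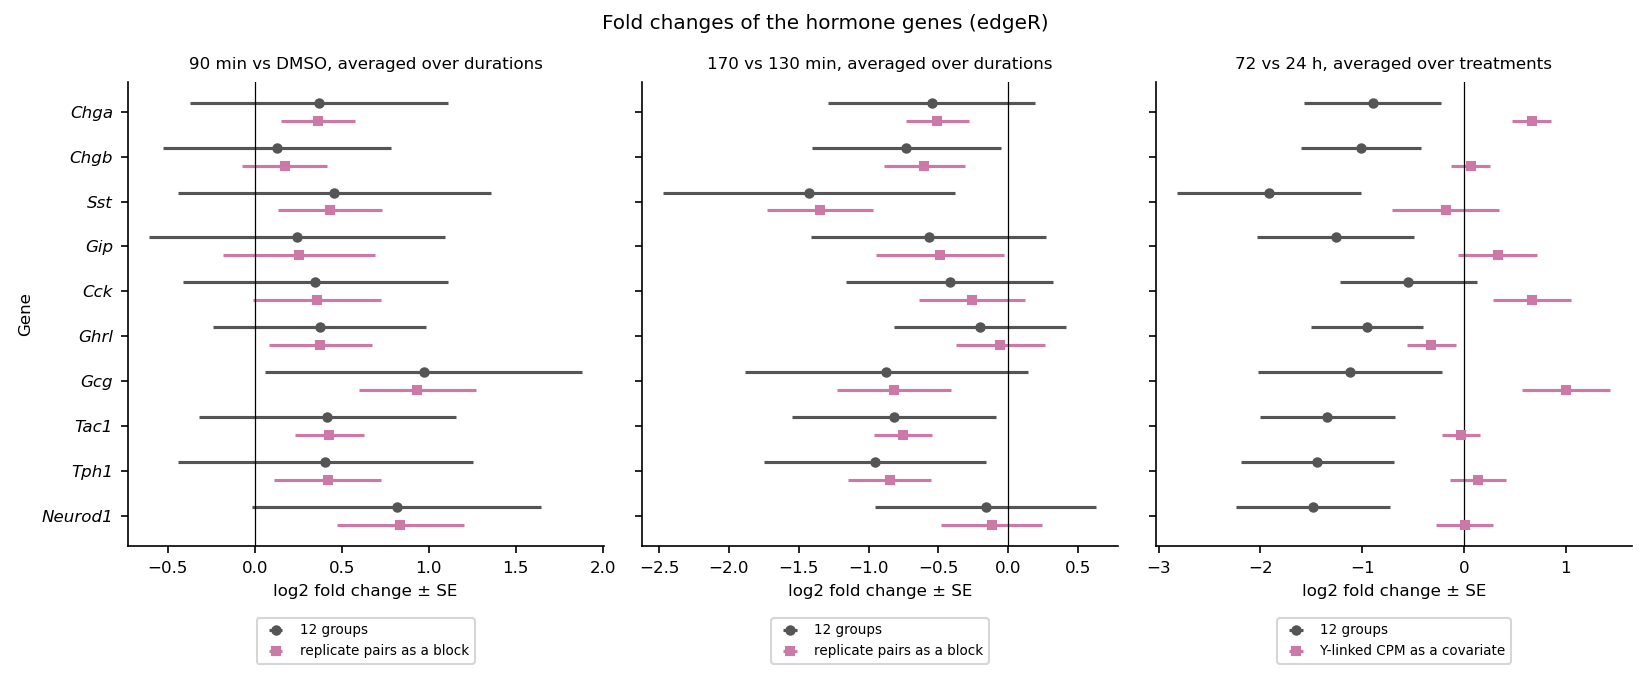
Log2 fold change ± SE of the 10 hormone genes (edgeR) in 3 comparisons, with 12 group coefficients (circles) and with replicate pairs as a block or the Y-linked level as a covariate (squares). The squares have shorter bars throughout, and at 72 relative to 24 h they lie from -0.32 to 1.01 where the circles lie from -1.91 to -0.55.

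Duration was compared over the 4 treatments together. At 72 h relative to 24 h all 10 fold changes were negative, with a median of -1.19 on the log2 scale beside a median of 0.00 over all tested genes, yet 0 of the 10 passed the threshold (edgeR), beside 18 of all tested genes (0.157%). Sst was at -1.91 (SE 0.90, adjusted p = 0.317) and Tac1 at -1.34 (SE 0.66, adjusted p = 0.347) by edgeR. Without replicate 3 of 130 min at 72 h these were -3.99 for Sst (adjusted p = 0.108) and -2.20 for Tac1 (adjusted p = 0.12). Sst averaged 23.5 ± 35.7 CPM at 72 h and 59.5 ± 56.1 CPM at 24 h, and Tac1 43.0 ± 49.2 CPM at 72 h and 91.7 ± 66.2 CPM at 24 h (SD, n = 12 each). Sst alone of the 10 genes had an unadjusted p under 0.05, beside 14.8% of all tested genes.

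At 72 h relative to 48 h all 10 fold changes were negative as well, from -2.31 to -0.80. Neurod1 was at -2.31 (SE 0.70, adjusted p = 0.238) and Sst at -2.05 (SE 0.87, adjusted p = 0.357) by edgeR. As libraries were left out, Neurod1 ran from -3.57 to -1.81 and Sst from -4.55 to -0.97. An unadjusted p under 0.05 was reached by 5 of 10 hormone genes, beside 12.6% of all tested genes, and 0 of 10 hormone genes and 0.0% of all tested genes passed the adjusted threshold. At 48 h relative to 24 h, Neurod1 was at 0.83 (SE 0.60, adjusted p = 0.675) and Gcg at 0.60 (SE 0.72, adjusted p = 0.824) by edgeR, with 0 of 10 hormone genes and 0.0% of all tested genes past the threshold, and 0 of 10 beside 9.63% at an unadjusted p under 0.05. The Y-linked level moved with these differences. With it in the model and the Xist libraries left out, the 10 fold changes at 72 relative to 24 h lay from -0.32 to 1.01. Of these 7 were positive. Those at 72 relative to 48 h lay from -0.89 to 0.49, and those at 48 relative to 24 h from -0.17 to 0.89. An unadjusted p under 0.05 was reached in that fit by 2, 1 and 3 of 10 hormone genes, in this order (edgeR). Of all tested genes 966, 749 and 1064 reached it. Sst at 72 relative to 24 h was then -0.18 (SE 0.53, adjusted p = 0.971), Tac1 -0.03 (SE 0.19, adjusted p = 0.99) and Chga 0.67 (SE 0.19, adjusted p = 0.254) by edgeR. Neurod1 at 72 relative to 48 h kept its sign, at -0.89 (SE 0.25, adjusted p = 0.523), and at 48 relative to 24 h it was 0.89 (SE 0.20, adjusted p = 0.248) by edgeR. That covariate was chosen after the values had been seen.

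The biological coefficient of variation, the relative spread between replicates beyond counting error, was 0.97 for Ghrl and 1.71 for Gcg, the lowest and highest of the 10, against a median of 0.128 over all tested genes.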

How the data were processed

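Whole-number counts of molecules (UMI counts) per gene and library were deposited by the authors. The submitters' processing notes name STAR 2.7.8a for alignment and UMI-tools 1.1.1 for counting molecules. Neither build nor annotation nor counting rule is stated, so reads shared with paralogs or overlapping genes cannot be traced. The name of each of the 36 columns gave its treatment, duration and replicate, and 0 columns were left over. Neighbouring libraries of a group differed by more than sampling noise, so none was treated as a duplicate.

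Counts were tested with edgeR 4.0.16 in R 4.3.3: filterByExpr (11462 of 34197 genes kept, all 10 hormone genes among them, through the libraries in which they were high), TMM, 1 coefficient for each of 12 groups (24 residual degrees of freedom) and robust quasi-likelihood F tests. P-values were adjusted by Benjamini-Hochberg across the tested genes, two-sided except for the interaction, with a threshold of 0.05. Standard errors are the size of the fold change before shrinkage divided by the root of F. Correlations used log2(CPM + 1) less the group mean with permutation within groups (numpy 2.4.6, scipy 1.17.1). Alternatives included DESeq2 1.42.0, RLE scaling, no filter, total counts as a covariate, replicate blocks and each library left out. The steps were tested on simulated data.

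The genes, lists and tests were chosen with earlier results of these data known. All 10 genes are described by level. Fold changes are given for genes past the threshold, otherwise for the 2 genes with the smallest p in each averaged comparison and for 1 over the single durations. The 3 genes most like each gene are named by r. Motifs were searched in 250 bases before each start of the RefSeq table.

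Same-numbered libraries of 130 and 170 min correlated above 0.1 in 9 of 9 pairs (0.24 to 0.59, over tested genes other than the 10), so the numbers pair these treatments, with the pairing read from the data and not from the labels. For 90 min and DMSO 6 of 9 pairs were above 0.1 (0.08 to 0.49). There 7 of 9 libraries were best with their own number, and pairs of other numbers had a median of -0.09. The numbers may thus pair those 2 treatments as well, less closely. The main fit leaves that pairing out, and values with that block are an alternative.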

Additional observations from a re-analysis of the deposited data

How the results depend on the processing

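In all 19 tests 0 of the 10 hormone genes passed the threshold under every alternative run, the smallest adjusted p being 0.0811, so these counts hold no call that could be lost. Of 878 alternative values of the 19 fold changes named, 862 kept the sign and 16 reversed it. These include fits without a library outside the comparison, so the share says little about a single fold change. Every named fold change that involved 130 min changed sign with some library or replicate number left out. So did those of 170 min relative to DMSO. With libraries left out, the log2 fold change ran from -0.17 to 2.23 for Tph1 and from -1.70 to 2.07 for Sst in 130 min relative to DMSO, and from -0.30 to 1.86 for Neurod1 and from -1.5 to 0.41 for Chgb in 170 min relative to DMSO. It ran from -1.34 to 0.48 for Tph1 and from -1.51 to 2.47 for Sst in 90 relative to 130 min, and from -2.12 to 1.34 for Sst and from -1.18 to 0.40 for Tph1 in 170 relative to 130 min. For Tph1 in 130 min relative to DMSO at 72 h it ran from -2.36 to 3.77. At 48 relative to 24 h it ran from 0.45 to 1.29 for Neurod1 and from 0.14 to 1.2 for Gcg, and at 72 relative to 24 h from -3.99 to -1.58 for Sst and from -2.20 to -1.11 for Tac1. With the Y-linked level as a covariate, Sst in 90 relative to 130 min was 0.12. The cause of these reversals beyond the left-out libraries was not tested. Of 45 gene pairs, 45 passed under every scaling, pseudocount, block over all treatments and left-out library, 38 passed without replicate 3, 30 passed with the block within pairs of treatments, and 5 passed with the Y-linked level regressed out. The last 2 were chosen after seeing the data, as were all fits with Y-linked levels or without the Xist libraries.

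A replicate block left 0 of 10 hormone genes called in every test, and no hormone gene call changed under any block. The block over all treatments left all 45 pairs past the threshold. It cannot take up a pairing within 2 treatments, since same-numbered libraries of other treatments went opposite ways. The hormone gene r of same-numbered libraries ran from -0.91 to -0.47 for 130 min and DMSO, and from -0.69 to -0.45 for 170 min and DMSO. For durations the block was the number within each treatment. It gave 22 called genes over the whole table at 72 relative to 24 h, against 18 without it. For that comparison DESeq2 called 102 genes, edgeR without a filter 304, with total counts as a covariate 12, without the Xist libraries 0, and with 1 library or replicate number left out 0 to 143. Over the whole table DESeq2 called 7 genes for 130 min relative to DMSO, 18 for 90 relative to 130 min and 4 for 170 relative to 130 min. It called 17 for 48 relative to 24 h and 9 for 72 relative to 48 h. The main edgeR fit called 0 in each of these. Without a filter edgeR called 4, 6, 7, 7 and 132 genes, in the same order. Without the Xist libraries it called 10 for 130 min relative to DMSO. With the Y-linked level in the model as well, it called 27 there and 126 for 90 relative to 130 min. Depth limits Gcg, Tph1 and Neurod1 most, with medians of 16.5, 11 and 13.5 molecules per library.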
